A study of Mus musculus with 2 samples.

Results

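A CpG site carries a cytosine on each strand of DNA, so unmodified cytosine (C), 5-methylcytosine (mC, M) and 5-hydroxymethylcytosine (hmC, H) give 9 CpG states when both strands are read from the same molecule. HH is the state in which both cytosines are hydroxymethylated, whereas HC, CH, HM and MH carry hmC on 1 strand only and are named here as asymmetric hmC. The sites described here are the autosomal CpG sites at which at least 1 read pair was called HH in each of the 2 replicates. They number 4037 of the 4494645 autosomal sites covered in both replicates, a share of 0.0898%. A further 211516 shared sites had an HH call in replicate 1 only, 37845 had one in replicate 2 only, and 4241247 had none. The sites were selected on their HH counts, so their HH levels are given as a description and the p-values given are for other states and for annotation and sequence.

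The data are SCoTCH-seq CpG states of E14 mouse embryonic stem cells (mESCs), an established line, grown on gelatin in medium with serum and 1000 U/mL LIF. The 2 replicates are DNA from different passages of this 1 line under the same conditions, so no treatment or genotype was compared and the results need not hold for other lines. Replicate 1 held 141159011 calls at 13366464 autosomal sites, with a mean depth of 10.6 read pairs, and replicate 2 held 31102023 calls at 4882356 sites, with a mean depth of 6.37. Every deposited site had at least 5 calls.

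TET enzymes oxidise mC to hmC, and do so 1 cytosine at a time. HH at a CpG therefore requires an oxidation event on each strand of the same molecule. After replication a site that was hydroxymethylated on both strands is left with hmC on the parental strand and an unmodified cytosine on the new one, unless that cytosine is then methylated. In mESCs, hmC has been reported to be enriched at distal regulatory elements of intermediate methylation and at gene bodies, and to be low at unmethylated CpG islands. The study that reported these data found much hmC at primed enhancers. At active and poised enhancers it found somewhat less than at random regions, with HC/CH raised at their flanks. Some earlier reports had found enrichment there, and the study states that they defined poised enhancers differently. For active enhancers it cites others with a similar depletion.

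The sequences around the 8 leading sites and around the closest group of 3 sites are given as examples and were not compared with other sequences. They are plus-strand reference sequence of GRCm38.p6 from RefSeq, with 40 bases either side, and the capitals mark each CpG at which HH was called in both replicates. The first 8 are named by the gene that holds the site or, for Brip1, by the nearest start of a protein-coding gene.
Kcnj4: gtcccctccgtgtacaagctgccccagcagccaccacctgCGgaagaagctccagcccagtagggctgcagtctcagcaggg
Brip1: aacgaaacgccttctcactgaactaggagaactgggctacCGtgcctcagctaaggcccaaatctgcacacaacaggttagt
Gpr176: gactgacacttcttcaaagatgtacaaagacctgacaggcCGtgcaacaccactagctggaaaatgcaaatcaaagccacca
Arhgap8: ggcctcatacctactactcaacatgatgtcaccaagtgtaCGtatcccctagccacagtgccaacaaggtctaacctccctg
Rnf151: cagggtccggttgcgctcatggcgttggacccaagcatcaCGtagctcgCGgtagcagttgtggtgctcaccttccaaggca
Mcu: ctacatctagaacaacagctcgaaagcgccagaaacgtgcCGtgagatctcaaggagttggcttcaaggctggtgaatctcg
Creb3l2: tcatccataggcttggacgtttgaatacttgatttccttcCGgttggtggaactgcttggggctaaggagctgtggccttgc
Stx8: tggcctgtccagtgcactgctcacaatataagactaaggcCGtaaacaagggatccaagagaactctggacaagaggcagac
Cldn10: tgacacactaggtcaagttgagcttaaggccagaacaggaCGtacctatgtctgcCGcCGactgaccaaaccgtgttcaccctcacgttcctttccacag

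Among these, the sequence of Kcnj4 spans chr15:79492693-79492774, that of Brip1 chr11:86204787-86204868, that of Gpr176 chr2:118315767-118315848, that of Arhgap8 chr15:84730447-84730528 and that of Rnf151 chr17:24716422-24716503. The sequence of Mcu spans chr10:59586920-59587001, that of Creb3l2 chr6:37364419-37364500, that of Stx8 chr11:68151003-68151084 and that of Cldn10 chr14:118852598-118852697.

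The first question was whether more sites than expected had HH in both replicates. Given the depth of each site and the mean HH level of each replicate at the shared sites (0.448% and 0.158% of calls), independent draws give 2421 such sites. The observed number was 1.67 times this, with an exact Poisson 95% interval of 1.62 to 1.72 that covers counting error only. The ratio was above 1 on 19 of 19 autosomes, from 1.43 on chromosome 3 to 2.03 on chromosome 17, with 123 to 312 sites per autosome. Expressed as shares, 1.87% of the sites with HH in replicate 1 also had it in replicate 2, against 0.884% of the sites without it in replicate 1. In the other direction, 9.64% of the sites with HH in replicate 2 had it in replicate 1, against 4.75% of the sites without it in replicate 2.

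**Figure D1:**
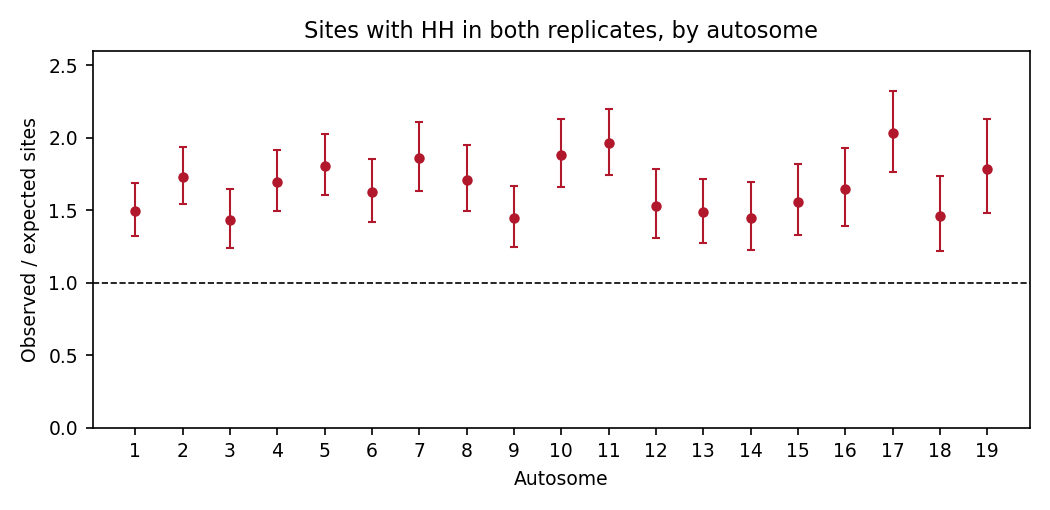
Observed over expected number of sites with HH in both replicates (vertical axis, no unit) for each of the 19 autosomes (horizontal axis). Points are ratios, bars are exact Poisson 95% intervals, and the dashed line marks a ratio of 1; all points lie between 1.43 and 2.03.

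Most of these sites rest on few molecules. Of the 4037 sites, 3112 had exactly 1 HH call in each replicate, 566 had at least 2 calls in replicate 1, 417 had at least 2 in replicate 2, and 58 had at least 2 in both. For the last of these, independent draws give 0.431 sites. HH made up 9.51% of the 49440 calls at the selected sites in replicate 1 and 16.2% of the 27772 calls in replicate 2, values that the selection and the depth fix together. The median depth was 11 read pairs in replicate 1 and 6 in replicate 2, the same medians as for all shared sites. Just inside the rule, sites with 1 call in each replicate had median HH levels of 9.09% and 16.7%. Just outside it lay 188063 sites with 1 call in replicate 1 and none in replicate 2, with a median HH level of 7.69% in replicate 1. Another 34886 sites had 1 call in replicate 2 and none in replicate 1, with a median of 16.7% in replicate 2.

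The background of HH calls differed between the replicates. On the synthetic duplexes of known state, MM was called HH in 0.709% of reads in replicate 1 and 0.0117% in replicate 2, and HM or MH was called HH in 2.79% and 0.457%. Lambda DNA methylated at every CpG gave HH at 1.09% (replicate 1, 452823 calls) and 0.0351% (replicate 2, 279414 calls). Applied to the non-HH calls at the shared sites, the duplex rates give an HH level of 0.510% in replicate 1, above the 0.448% measured, and of 0.0253% in replicate 2, below the 0.158% measured. The HH level of replicate 1 was thus no higher than these rates give, whereas that of replicate 2 was. If HH arose only at these rates from the other states at each site, 443.8 sites would have had it in both replicates. That figure assumes that the duplex rates hold for genomic DNA. Lambda DNA gave HH at higher rates than MM of the duplexes in both replicates, and its rates for MM would give a higher figure. The figure was not recomputed with them.

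The states called beside HH at the selected sites were then compared with those of the shared sites, each weighted by its probability of selection under independent draws. The weights favour deep sites, and the weighted shared sites had a mean depth of 14.6 and 7.10 in the 2 replicates, against 12.3 and 6.88 at the selected sites and 12.04 and 6.41 at all shared sites. With all shared sites weighted equally, each tested difference kept its direction and its side of the threshold. The sites had more asymmetric hmC of both kinds, more CC, and less MM and MC/CM. HC/CH made up 11.7% of non-HH calls in replicate 1 and 12.0% in replicate 2 (11.9% ± 0.265, SD, n = 2), against 3.76% and 3.33% at the weighted shared sites. The difference was 8.31 percentage points ± 0.566 (SD, n = 2), a ratio of 3.34. HM/MH made up 7.93% and 7.51%, against 3.81% and 2.24%, a difference of 4.69 percentage points ± 0.810 (SD, n = 2). Both states were higher in 19 of 19 autosomes (adjusted p = 6.59e-06 for each, exact two-sided sign-flip permutation test over autosomes, Benjamini-Hochberg over 19 tests), and 6.59e-06 corresponds to an unadjusted 3.81e-06, the smallest p the test can give. The autosomes come from the same 2 libraries and are no replicates of each other, so these p-values describe how evenly a difference is spread over the genome. On the duplexes, HM or MH was called HH in 2.79% and 0.457% of reads, and HC or CH in 0.0750% and 0.136%. Sites rich in these states can thus enter the selection through miscalls. The tests of HM/MH, and less so of HC/CH, are therefore not fully separate from the rule.

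MM, methylation of both strands, made up 41.4% and 44.9% of non-HH calls, against 54.8% and 59.2%, and was lower by 13.9 percentage points on average. MC/CM, hemimethylation, made up 8.30% and 9.64%, against 14.03% and 14.99%. CC made up 30.7% and 25.9%, against 23.6% and 20.2%. The differences in MM and MC/CM were negative in 19 of 19 autosomes and that in CC was positive in 19 of 19 (adjusted p = 6.59e-06 for each, same permutation test). Among sites with at least 10 calls in each replicate the excess of CC was 1.46 percentage points (adjusted p = 0.212, exact permutation), and over all calls, HH included, it was 2.91.

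**Figure D2:**
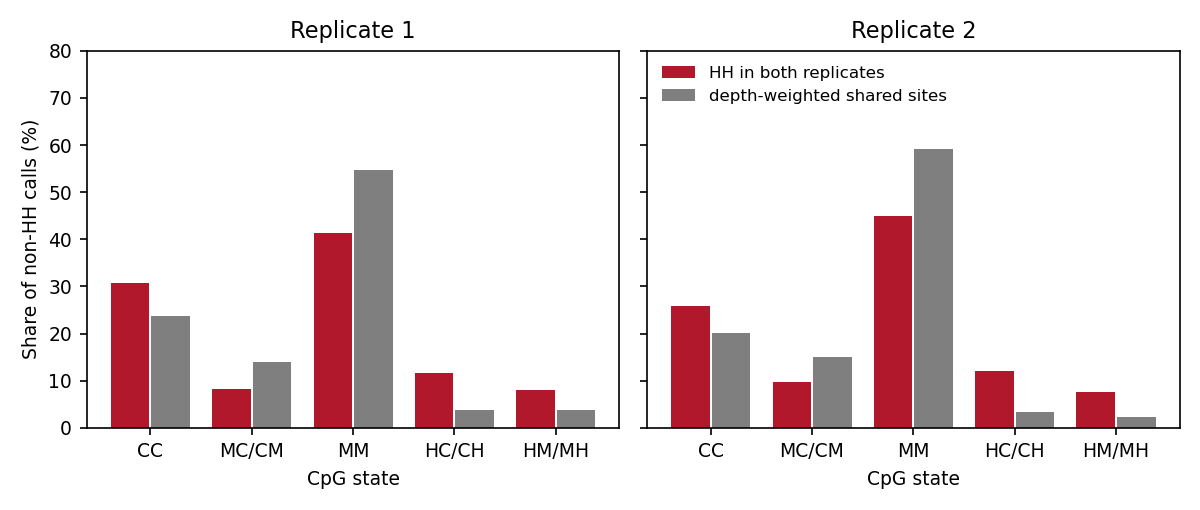
Share of non-HH calls in percent (vertical axis) for 5 groups of CpG states (horizontal axis), with replicate 1 on the left and replicate 2 on the right. Red bars are the 4037 sites with HH in both replicates and grey bars the depth-weighted shared sites; HC/CH is at 11.7% and 12.0% in red and at 3.76% and 3.33% in grey.

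Asymmetric hmC at the selected sites was divided about evenly between the strands. HC made up 5.78% and 6.004% of non-HH calls in the 2 replicates and CH 5.89% and 6.03%, and HM made up 3.89% and 3.79% against 4.03% and 3.72% for MH. Of the sites, 1342 (33.2%) had HC/CH in each replicate, against 9.29% of the weighted shared sites, and 769 (19.1%) had HM/MH in each, against 6.19%. Either kind was present in each replicate at 2196 sites (54.4%), against 19.4%. With the replicates summed, 1368 sites (33.9%) had both HC and CH, and thus hmC on either strand opposite an unmodified cytosine in different molecules, against 9.96%. All of HC, CH, HM and MH were found beside HH at 304 sites (7.53%), against 1.52%. By contrast, 365 sites (9.04%) had no asymmetric hmC in either replicate, against 34.0% of the weighted shared sites. These shares carry no test.

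The number of HH calls and the level of asymmetric hmC were set side by side. At the 58 sites with at least 2 HH calls in each replicate, HC/CH made up 15.2% and 24.5% of non-HH calls. At the 3112 sites with 1 call in each it made up 11.4% and 11.5%, at sites with HH in replicate 2 only 9.38% and 9.46%, at sites with HH in replicate 1 only 5.11% and 4.73%, and at sites with none 3.92% and 3.50%. The order was the same in both replicates. Sites with HH in replicate 1 only were the closest to those with none.

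The excess of sites with HH in both replicates varied with the level of asymmetric hmC, taken over the non-HH calls of both replicates. Sites with more than 30% asymmetric hmC included 846 of the selected sites where 45.1 were expected from depth and the mean HH level, a ratio of 18.7 (95% interval 17.5 to 20.05). Between 20 and 30% the ratio was 7.04, between 10 and 20% it was 2.53, between 5 and 10% it was 1.05, and it was 0.284 above 0 and up to 5% and 0.443 at 0. When the expectation used the mean HH level of each of these 6 classes, it rose to 3032 sites and the ratio fell to 1.33. The ratio also varied with methylation: sites of intermediate modification (any mC or hmC in more than 20 and up to 60% of non-HH calls) had ratios of 5.63 and 6.29. The ratio was 0.596 below that range, and above it declined through 3.14 (1125 sites) and 1.13 (1303 sites) in successive classes of higher modification to 0.773 (397 sites) at fully modified sites.

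The neighbourhood of the sites was examined next, at the other CpG sites within 500 bp. HC/CH there made up 7.68% of calls in replicate 1 and 7.84% in replicate 2, against 4.29% and 3.87% around the weighted shared sites, a difference of 3.68 percentage points ± 0.410 (SD, n = 2). HM/MH made up 5.43% and 5.13%, against 3.91% and 2.52%. HH itself, at these other sites, made up 0.876% and 0.740% of calls, against 0.460% and 0.182%, a ratio of 2.51. Because a neighbour can itself have been selected, this measure is not independent of the selection. Without the 133 sites that had another selected site within 500 bp, the difference in HH was 0.395 percentage points, against 0.486 with them, and beyond 100 bp alone it was 0.222. No p-value is therefore given for HH. HC/CH and HM/MH were each higher in 19 of 19 autosomes (adjusted p = 6.59e-06 for each, exact sign-flip permutation test). Close neighbours can lie on the same read pairs as the site. Beyond 100 bp alone the differences in HC/CH and HM/MH were 3.01 and 1.45 percentage points, against 3.68 and 2.07 over the full 500 bp. MM (45.8% ± 2.40, SD, n = 2) and MC/CM (10.4% ± 0.714, SD, n = 2) were lower than around the weighted shared sites (52.0% and 12.1%), in 18 of 19 autosomes each (adjusted p = 1.12e-05, same permutation test). CC made up 31.9% and 27.8% against 29.1% and 27.5%, a difference of 1.58 percentage points ± 1.78 (SD, n = 2) that was smaller than the spread between the replicates. Its adjusted p was 0.0193 over both replicates and 0.397 in replicate 2 alone (exact permutation). The neighbourhood of sites with HH in replicate 2 only was similar, with HC/CH at 6.85% and 7.06% and HM/MH at 4.81% and 4.54%. Around sites with HH in replicate 1 only, HC/CH was at 5.23% and 4.80% and HM/MH at 4.83% and 3.20%.

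The levels declined with distance from the site. HC/CH at CpG sites 1 to 50 bp away made up 9.53% and 9.64% of calls in the 2 replicates. It declined to 7.01% and 6.68% at 201 to 500 bp and to 5.48% and 5.16% at 1001 to 2000 bp, where the weighted shared sites had 4.42% and 4.02%. HM/MH declined from 7.20% and 7.28% within 50 bp to 4.38% and 3.32% at 1001 to 2000 bp. HH declined more steeply, from 1.92% and 1.55% within 50 bp to 0.965% and 0.718% at 51 to 100 bp and 0.526% and 0.261% at 1001 to 2000 bp. Such a decline was not particular to the selected sites. Around sites with HH in replicate 1 only, HH in replicate 1 fell from 2.23% to 0.781% over the first 2 bins. Around those with HH in replicate 2 only, HH in replicate 2 fell from 1.40% to 0.594%. In the replicate without HH at the site, HH within 50 bp was at 0.286% and 0.729%. In replicate 1, 50.1% of the sites had another HH call within 500 bp, against 26.4% of the weighted shared sites. In replicate 2 these shares were 16.6% and 3.58%.

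**Figure D3:**
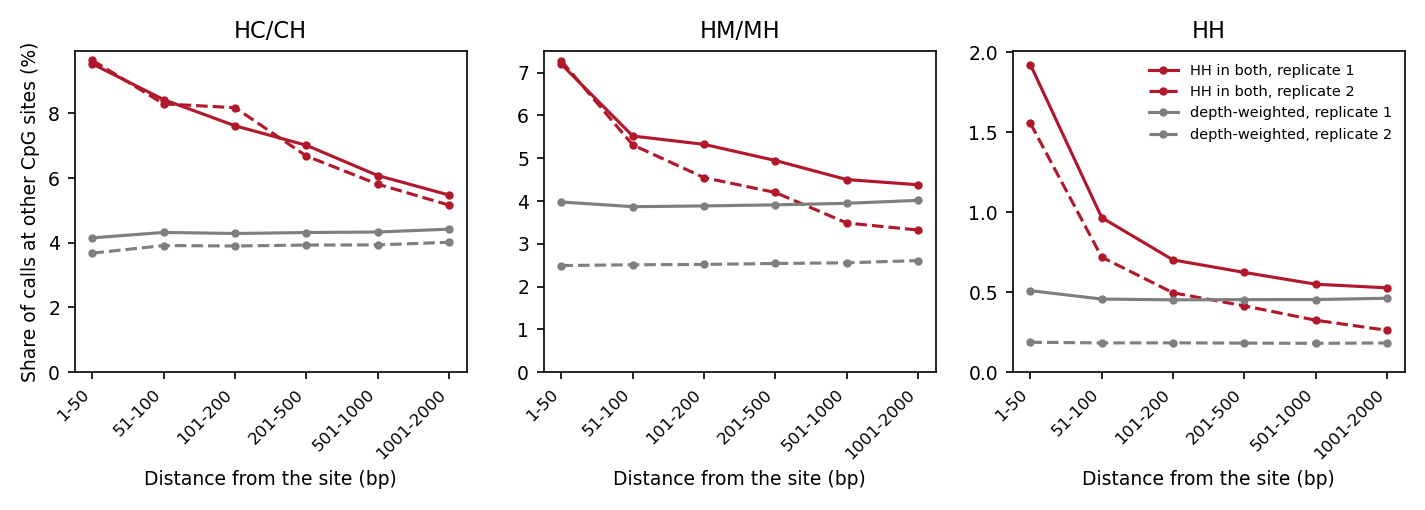
Share of calls in percent (vertical axis) at other CpG sites in 6 bins of distance from the site in bp (horizontal axis, bins not to scale), for HC/CH, HM/MH and HH. Red lines are the sites with HH in both replicates and grey lines the depth-weighted shared sites, solid for replicate 1 and dashed for replicate 2; HH is at 1.92% and 1.55% within 50 bp of the sites and at 0.526% and 0.261% at 1001 to 2000 bp.

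Selected sites also lay close to each other. Within 50 bp there were 48 pairs of selected sites, where 2.09 pairs are expected if the 1.67-fold excess is spread evenly over the shared sites. At 201 to 500 bp there were 14 pairs against 3.25, and at 2001 to 10000 bp 142 pairs against 72.7. Inserts were short, and CpG sites this close can lie on the same read pairs, so close pairs are not independent observations. In all, 133 of the 4037 sites had another within 500 bp, and 3 groups held 3 sites each. The closest, printed above, spanned 20 bp in the first intron of Cldn10, a gene for a claudin of tight junctions. Its 3 CpGs each had 1 HH call in either replicate, at depths of 9, 10 and 10 in replicate 1 and 7, 6 and 7 in replicate 2. The others lay in an intron on chromosome 1 (chr1:133264531-133264979, 449 bp) and in intergenic DNA on chromosome 12, 138908 bp downstream of the start of Kif26a (chr12:112285116-112285513, 398 bp).

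Corrected with the call rates of the duplexes of the same replicate, the differences remained. HC/CH at the sites was then 11.4% and 12.4% of non-HH calls against 3.21% and 3.27%, and HM/MH was 5.95% and 7.08% against 1.12% and 1.89%. HH within 500 bp was 0.448% and 0.727% of calls against 0.0274% and 0.164%. In replicate 1 the duplex rates give an HH level of 0.510% at the shared sites, above the 0.448% measured. The corrected 0.0274% of replicate 1 therefore depends on the control used for the rates, and so does its contrast with the selected sites. Lambda DNA gave higher HH rates than MM of the duplexes, and no correction was made with them. The correction of the sites themselves leaves out HH, so molecules truly HH but read as HC/CH or HM/MH still count among those states. It was applied to pooled calls of sites still selected on uncorrected HH calls. It therefore cannot remove a difference made by selection through miscalls.

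By annotation (GENCODE vM21, protein-coding genes), 1781 of the 4037 sites were intergenic, 947 fell in introns after the first, 797 in first introns and 404 in exons. Promoters, the DNA up to 1 kb from a transcription start site (TSS) in both directions, held 108. Exons held 10.0% of the sites against 6.62% of the weighted shared sites, in 19 of 19 autosomes (adjusted p = 6.59e-06, exact sign-flip permutation test). Intergenic DNA held 44.1% against 47.9% (adjusted p = 0.000778, same permutation test; lower in 15 of 19 autosomes). In the same permutation test, promoters held 2.68% against 3.43% (adjusted p = 0.0231) and first introns 19.7% against 18.03% (adjusted p = 0.0231). Both permutation calls were lost with another promoter width: for promoters of 2 kb the difference was -0.599 percentage points (adjusted p = 0.227), and with promoters of 500 bp that of first introns was 1.17 (adjusted p = 0.118). Other introns held 23.5% against 24.1%, a difference that did not pass the permutation test (adjusted p = 0.247).

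Distance to the nearest TSS gave a similar picture. The ratio of observed to expected sites was 1.30 within 1 kb (95% interval 1.07 to 1.57), 1.86 at 1 to 5 kb, 2.09 at 5 to 20 kb, 1.93 at 20 to 100 kb and 1.10 (1.02 to 1.17) beyond 100 kb. Of the 4037 sites, 1014 lay at 5 to 20 kb and 1695 at 20 to 100 kb.

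**Figure D4:**
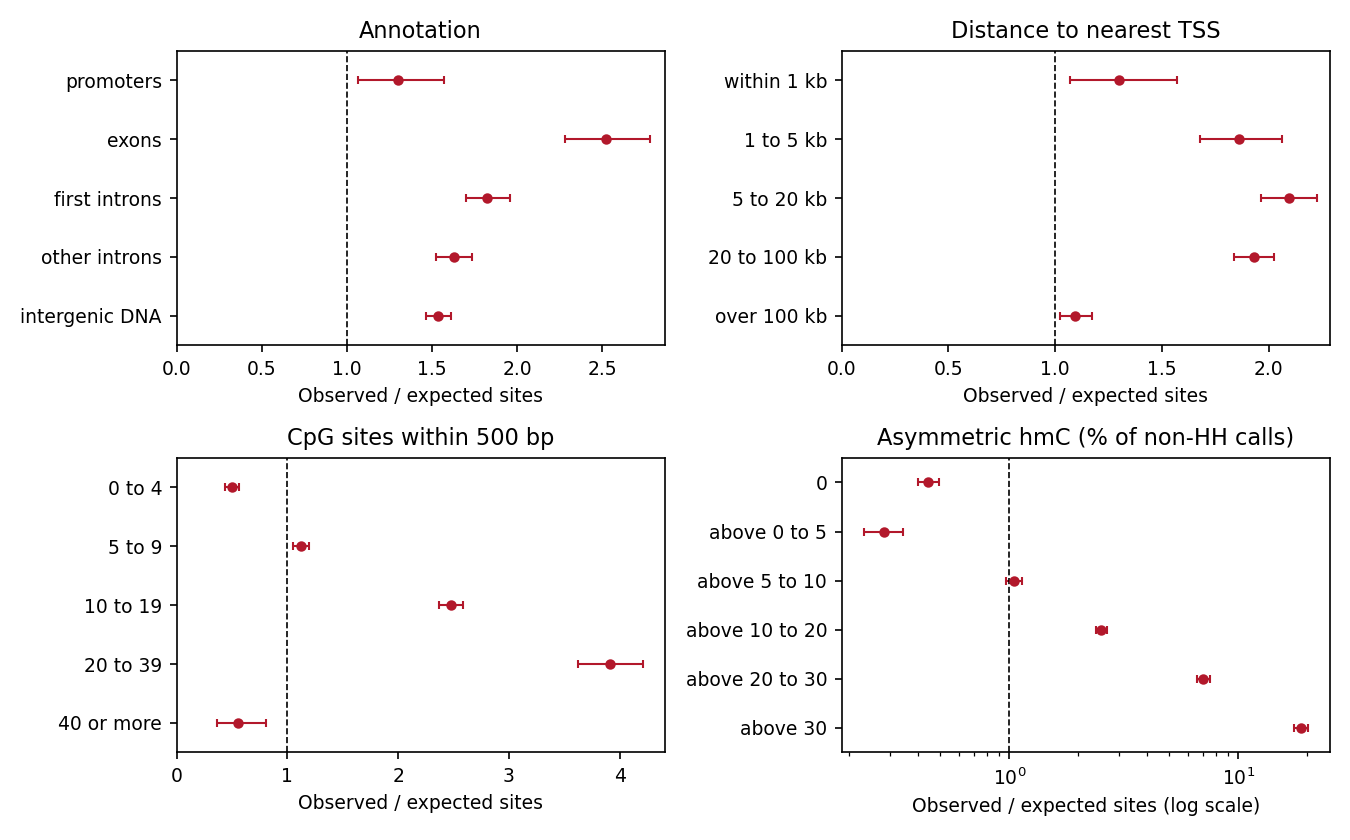
Observed over expected number of sites with HH in both replicates (horizontal axes; log scale in the lower right panel) by annotation, distance to the nearest TSS, number of CpG sites within 500 bp and share of asymmetric hmC in non-HH calls. Points are ratios, bars are exact Poisson 95% intervals and dashed lines mark 1; the ratio reaches 3.91 at 20 to 39 CpG sites within 500 bp and 18.7 above 30% asymmetric hmC.

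The sites lay in DNA richer in CpG than the weighted shared sites. The reference held 13.7 CpG sites within 500 bp on average, against 10.7, and a GC content of 46.7%, against 43.3%, both higher in 19 of 19 autosomes (adjusted p = 6.59e-06 for each, exact sign-flip permutation test). The relation to CpG number was not monotonic. The ratio of observed to expected was 0.497 with up to 4 CpG sites within 500 bp, 1.12 with 5 to 9, 2.48 with 10 to 19 and 3.91 with 20 to 39. With 40 or more, the density of CpG islands, it was 0.556 (95% interval 0.366 to 0.809), from 27 sites. Soft-masked repeats held 7.04% of the sites against 9.98% (adjusted p = 9.32e-05, same permutation test).

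The states at the sites were also set beside those of the weighted shared sites within each class of DNA. HC/CH at the 108 sites in promoters made up 10.8% and 13.7% of non-HH calls in the 2 replicates, against 2.52% and 2.49% at the weighted shared sites of promoters. At the 404 sites in exons it made up 12.2% and 12.4%, against 4.79% and 4.37%, and at the 1781 intergenic sites 11.5% and 11.8%, against 3.37% and 2.97%. By CpG number, HC/CH was at 10.3% and 10.1% with up to 4 CpG sites within 500 bp and at 11.9% and 12.2% with 20 to 39, against 2.55% and 1.99% and against 5.18% and 5.21%. The differences in CC, MM and MC/CM between promoters and intergenic DNA were of opposite sign. In promoters, CC made up 43.2% and 36.4% of non-HH calls at the sites and 74.3% and 73.3% at the weighted shared sites, and MM made up 32.6% and 34.5% against 16.7% and 17.5%. In intergenic DNA, by contrast, CC was at 31.3% and 26.3% against 22.1% and 18.5%, and MM at 41.1% and 44.9% against 56.2% and 60.9%. The 27 sites with 40 or more CpG sites within 500 bp had CC at 53.4% and 51.2%, against 94.4% and 93.2%. Differences between classes were not tested.

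The bases next to the CpG differed as well. Written as the 4 bases around the CpG on either strand, ACGG (or its complement CCGT) held 1049 sites where 361.5 were expected, a ratio of 2.90 (95% interval 2.73 to 3.08). CCGG had a ratio of 3.19 and ACGT one of 2.30. Together these 3 contexts held 52.1% of the selected sites and 31.5% of the shared sites. The ratio was below 1 in GCGA (0.650), TCGA (0.666) and GCGC (0.605). The level of HC/CH over all shared sites had a similar order, with 4.82% and 4.44% of calls in the 2 replicates in ACGG and 4.53% and 4.31% in CCGG, against 3.14% and 2.61% in TCGA and 2.89% and 2.57% in GCGC. HH in replicate 2 was at 0.245% in ACGG, 0.266% in CCGG and 0.0782% in GCGC. In replicate 1 it was at 0.492%, 0.428% and 0.359%. The order of contexts differed there: ACGT was highest at 0.544%, and ACGA (0.479%) and TCGA (0.437%) were above CCGG. In replicate 2 these 3 contexts were at 0.192%, 0.119% and 0.0837%, all below CCGG. The duplexes do not hold every context, and whether call rates depend on the bases next to the CpG was not tested.

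The leading sites were taken as the 20 with the highest lower count of HH calls in the 2 replicates, ties going to the higher HH levels. All 58 sites with at least 2 HH calls in each replicate tied at a lower count of 2. The 20 were thus set apart by their HH levels alone, a choice that favours sites of low depth. All had at least 2 HH calls in each replicate, at depths of 5 to 16 in replicate 1 and 5 to 8 in replicate 2. Their HH level ranged from 15.4 to 42.9% in replicate 1 (median 21.1%) and from 28.6 to 40% in replicate 2 (median 40%). None lay in a promoter, where 2.68% of all selected sites lay. Of the 20, 8 were intergenic (44.1% of all selected sites), 6 in first introns (19.7%), 5 in other introns (23.5%) and 1 in an exon (10.0%). Asymmetric hmC was called at 19 of the 20 in at least 1 replicate and at 15 in both. Of all selected sites, 9.04% had none in either replicate and 54.4% had it in both. Another HH call was found within 500 bp of 13 of the 20 in at least 1 replicate. Of all selected sites, 50.1% had one in replicate 1 and 16.6% in replicate 2. The 20 sites had 3 to 36 CpG sites within 500 bp (median 13.5). Of them, 14 were in the contexts ACGG, ACGT or CCGG, which held 52.1% of all selected sites.

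The site in the first intron of Kcnj4 (chr15:79492733-79492734), which encodes an inward-rectifier potassium channel, had HH in 2 of 5 calls in either replicate. Its other calls were 2 MM and 1 CH in each, so the 2 replicates had the same composition. The site 3634 bp upstream of Brip1, a helicase that works with BRCA1, had HH in 3 of 7 calls in replicate 1 and 2 of 7 in replicate 2 (chr11:86204827-86204828). Here replicate 2 also had 3 calls of MH.

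In the first intron of Gpr176, an orphan G-protein-coupled receptor, HH was called in 2 of 8 and 2 of 5 (chr2:118315807-118315808). The site in the first intron of Arhgap8, a GTPase-activating protein, had HH in 2 of 9 and 2 of 5, with 3 calls of HC or CH and 1 of HM in replicate 1 (chr15:84730487-84730488). The exonic site was in Rnf151, a RING finger protein (chr17:24716462-24716463), with HH in 2 of 7 and 2 of 6. A neighbouring CpG, at chr17:24716471-24716472, had HH in 2 of 8 and 1 of 5.

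The site in the first intron of Mcu, the pore of the mitochondrial calcium uniporter, had HH in 3 of 15 and 2 of 5 (chr10:59586960-59586961). In an intron of Creb3l2, a membrane-bound transcription factor of the endoplasmic reticulum, HH was called in 2 of 11 and 2 of 5 (chr6:37364459-37364460), beside 2 HC and 4 CH in replicate 1. The site in an intron of Stx8, an endosomal syntaxin, had HH in 2 of 11 and 2 of 5 with 2 HC and 2 CH in replicate 1 (chr11:68151043-68151044). At both of the last sites, HC and CH were called beside HH in replicate 1, and MC and CM were not. In replicate 2 the Creb3l2 site had 1 call of CM and no asymmetric hmC, and the Stx8 site had 1 call of CH.

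Of the other 12, the site in the first intron of Nfe2l2, the transcription factor of the antioxidant response, had the highest count in replicate 1, with HH in 4 of 16 calls and in 2 of 7 in replicate 2 (chr2:75695893-75695894). Those in introns of Enpep (an aminopeptidase), Mlxipl (the carbohydrate-response factor ChREBP), Rad54b (a recombination ATPase) and Gm49711 had 2 HH calls in each replicate. The intergenic ones lay nearest to Sox5, Sipa1l3, Tmtc2, Hif1a, Kcna10, Pkn2 and Ccn6, from 10254 bp upstream of Sipa1l3 to 457943 bp from the start of Tmtc2. The site near Tmtc2 was the exception without asymmetric hmC in either replicate.

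Protein-coding genes were then ranked by the number of selected sites in the gene body. Of 19570 genes with a shared site, 1815 (9.27%) held at least 1: 1478 held 1, 262 held 2 and 75 held 3 or more. The highest number, 12, was in Gm20388, an annotated model of 4435 kb that overlaps 73 other genes, where 6.56 were expected, and 10 of the 12 also lay in one of those. Camta1, which encodes a calmodulin-binding transcription activator, held 9 over 945 kb, where 1.37 were expected, and 2 of the 9 also lay in another of the 5 genes that overlap its span. Dnah8, a dynein heavy chain of the sperm flagellum, and Fgfr2, a fibroblast growth factor receptor, held 7 each, where 2.94 and 3.75 were expected. The annotated span of Fgfr2 is 2961 kb and overlaps 30 other genes, which held 2 of its 7 sites.

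Stox2, Baz2b, Tshz2, Magi1 and Zfhx3 held 5 each, with 0.497 to 1.26 expected. Baz2b encodes a bromodomain protein, Tshz2 and Zfhx3 zinc finger homeobox proteins, and Magi1 a junction scaffold. Igsf3, Vgll4, Plekha6, Vav2, Samd4b and Slc22a14 held 4 each, with 0.143 to 0.341 expected. Ties went to the genes with the lower expected number, so low expected numbers among these genes follow from the ranking. Of the 4 sites, 3 also lay in an overlapping gene in Samd4b and 3 in Slc22a14. Vgll4 encodes a cofactor of TEAD transcription factors. In Plekha6, 3 of the 4 sites are the group within 449 bp on chromosome 1. Over the whole body, HC/CH made up 7.37% and 7.22% of calls in Igsf3, 6.79% and 6.32% in Plekha6 and 6.50% and 6.04% in Vgll4, and 4.72% and 4.37% in Camta1. HH over the body of Igsf3 was at 0.420% and 0.499%, with 0.552% and 0.264% in Camta1. Genes were ranked on these counts, so neither the counts nor the levels carry a test.

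Genes of 9 lists relevant to mESCs and DNA modification were examined within the gene and 5 kb either side. Of the 100 genes with shared sites, 20 held a selected site, with 26 sites where 7.31 were expected, a ratio of 3.56. Of all 20055 protein-coding genes with a shared site in that range, 11.4% held one, with a ratio of 1.81. No test was made on the lists, and their ratios rest on 0 to 5 sites each.

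Among the enzymes of hmC, Tet1 and Tet2, which encode oxidases of mC, held 3 sites and 1 site. In Tet1, neighbouring exonic CpGs (chr10:62812585-62812586 and chr10:62812623-62812624) had HH in 1 of 10 and 1 of 9 calls in replicate 1 and in 1 of 8 and 1 of 9 in replicate 2. In the Tet2 intron HH was called in 1 of 11 and 2 of 9 (chr3:133481926-133481927). The list held 4 sites where 0.847 were expected, and no other gene of its 9 held one. The neighbouring exonic CpGs of Tet1 can lie on the same read pairs, so they are not independent observations. None of the 5 DNA methyltransferase genes held a site, where 0.430 were expected. Of the readers of modified CpG, Zbtb4 alone of 9 held one, 1040 bp upstream of its TSS, where 1.15 were expected in all.

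Of 15 genes of core and naive pluripotency, Nanog, Esrrb, Tfcp2l1 and Tbx3 held 1 site each, where 1.00 was expected in all. The site of Nanog, a homeobox factor of pluripotency, lay 7405 bp downstream of its TSS (chr6:122714894-122714895), with HH in 1 of 8 and 1 of 7. That of Esrrb, an orphan nuclear receptor, lay in its first intron with HH in 1 of 12 in either replicate (chr12:86442415-86442416). At the site past the end of Tfcp2l1, 5 asymmetric calls accompanied 1 HH call among 14 in replicate 1. Of 9 formative and primed genes, Fgf5 and Zic2 held 1 each and Lef1, an effector of Wnt signalling, held 2. Where 0.536 were expected, the list had 4.

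Of 14 developmental transcription factors, Pax3 and Pax7 held 2 sites each and Hand1 held 1, where 0.906 were expected in all. An intronic site of Pax3 had HH in 3 of 18 and 1 of 6 (chr1:78141103-78141104), and one of Pax7 in 2 of 21 and 1 of 7, beside 8 asymmetric calls in replicate 1 (chr4:139789921-139789922). Of 12 germline genes, Tdrd1, Piwil2 and Stk31 held 1 each, where 0.579 were expected in all. Piwil2, a protein of the piRNA pathway, held its site in the promoter, 418 bp from the TSS. Kcnq1 alone of 15 imprinted genes held one, with 1.43 expected. Of 12 ribosomal protein genes, Rpl3, Rps2 and Rps14 held 4 in all where 0.433 were expected, and both sites counted for Rps2 are the exonic CpGs of the neighbouring Rnf151. Those CpGs can lie on the same read pairs. The site counted for Rps14 was intergenic, 36090 bp downstream of its TSS.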

How the data were processed

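SCoTCH-seq reads both strands of a fragment in 1 construct, so that each read pair gives a CpG state. The authors trimmed reads with Cutadapt 4.6, aligned inserts to GRCm38 (mm10) with BSBolt, removed duplicates with Picard 3.1.1 and called states. They deposited the count of each CpG state and the depth at every site of each replicate, after removing blacklisted regions and sites under 5 calls. The deposited percentages equal count over depth and were not used. The deposited values were not corrected by the spike-ins, and values corrected here with the call rates of the duplexes are named as such.

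Positions were checked against GRCm38.p6: all 4494645 shared autosomal sites fell on the C of a CpG. The expected number of sites was the sum over shared sites of the product of the probabilities of at least 1 HH call in each replicate, from binomial draws at the depth of the site and the mean HH level of the replicate. These probabilities also weighted the shared sites in every comparison. The selected sites are part of the shared sites, so each difference is slightly understated. Levels are pooled calls, in percent, given per replicate or as mean ± SD. Differences were tested over the 19 autosomes with an exact two-sided sign-flip permutation test on the mean of both replicates, at a threshold of 0.05 after Benjamini-Hochberg adjustment over 19 tests. HH at neighbouring CpG sites was among the 19 but is given without a p-value, since a neighbour can itself be a selected site. Python 3.11.15, numpy 2.4.6, scipy 1.17.1 and pandas 2.3.3 were used, and the code was tested on simulated data. Gene models were GENCODE vM21 (20807 autosomal protein-coding genes).

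The replicates are 1 line at different passages, so their spread may be technical. Their depth makes the level of a single site coarse: 1 call is a large share of 5. The leading sites were the 20 with the highest HH levels among the 58 tied at the highest lower HH count. Genes were the 15 with the most sites in the body, with ties to the lower expected number, and list genes were those with a site within 5 kb. The sites and lists were chosen with earlier results of these data known. Duplex call rates are means over duplex sites of 1 true state.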

Additional observations from a re-analysis of the deposited data

Results flagged for a closer look

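The X chromosome lay outside the comparisons and also held HH in both replicates. At 25483 X-linked CpG sites covered in both replicates, 10 had HH in each, a count over 3, the limit for a count of 0. The autosomal HH levels and the depths of these sites already give 8.32, so a count over that limit was to be expected. No test was made.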

How the results depend on the processing

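Of 171 recomputed differences of the 19 tests, 165 kept their direction and their side of the threshold, 6 kept their direction but not the threshold, and none changed direction. CC within 500 bp exceeded the weighted shared sites by 0.319 to 2.83 percentage points with either replicate left out, with a call lost in replicate 2 alone, and by 1.11 outside soft-masked sequence (adjusted p = 0.0669, exact permutation). CC at the sites fell to 1.46 at a depth of at least 10. The promoter difference was -0.599 for promoters of 2 kb, and -0.538 without sites with 2 or more HH calls in a replicate. That of first introns was 1.17 for promoters of 500 bp. The cause was not tested.

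The ratio of observed to expected sites, 1.67, was 1.59 with the mean HH level of all autosomal sites, 1.59 by class of modified share, 1.52 by class of HM/MH share and 134.7 for at least 2 HH calls in each replicate, where 58 sites stood against 0.431. Under expectations added after seeing the data, it was 1.99 with the share of sites with HH observed at each depth, 1.33 by class of asymmetric hmC, 1.32 by class of asymmetric hmC and MM, 1.60 by class of CpG density and 9.10 with HH only from the miscalls of the duplexes. The ratio of 9.10 would be lower with the HH rates of lambda DNA, which exceeded those of MM on the duplexes. Depth limits what can be said of single sites: with a median of 6 calls in replicate 2, sites of low HH level are mostly missed.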
